A study of Homo sapiens with 2 samples.

Results

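The vacuolar ATPase (V-ATPase) subunits, the cathepsins and the lysosome-associated membrane proteins (LAMPs) were examined together as genes that acidify the lysosome, digest its cargo and line its membrane. Members were chosen by gene symbol: every name in the deposited table that starts with ATP6V0 or ATP6V1, the accessory genes ATP6AP1 and ATP6AP2, every CTS symbol of a cathepsin, and LAMP1, LAMP2 and LAMP3, without hyphenated read-through or antisense names. The rule found 43 of 26254 gene symbols, 13 for V1 subunits, 9 for V0 subunits, 2 accessory genes, 15 cathepsins, 3 LAMP genes and 1 pseudogene, ATP6V0CP3. All cells were HCT-116, a cell line from a human colorectal carcinoma. After serum starvation 1 culture received 10 µM of the bioactive lipid lysophosphatidic acid (LPA) for 24 h, and it was compared with untreated cells. Whether the untreated cells had also been starved is not given in the sources used here.

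There was 1 poly-A RNA library per condition, so no difference below has a replicate check and none has a p-value. Levels are FPKM, fragment numbers scaled by transcript length and between libraries, summed over the isoforms of a gene. How the libraries were scaled is not given in the sources used here, so the depths that follow are approximate. From the smallest values in the table, depth was estimated at about 15800000 fragments in the LPA library and 17500000 in the control library. A gene was treated as measured at a mean of at least 1 FPKM over both libraries, which 29 of the 43 members and 11686 genes in all reached. Of the epithelial markers checked, 6 of 7 were measured and VIL1 was listed at 0 in both libraries, and their FPKM summed to 3762 in the LPA library and 2880 in the control library. The 9 leukocyte markers summed to 3.61 FPKM in the LPA library and 3.19 FPKM in the control library, mostly CD68, with PTPRC, AIF1 and TYROBP listed at 0 in both. The 7 fibroblast markers summed to 4.32 and 5.80 FPKM, almost all of it COL1A1, and the 5 osteoclast markers to 0.307 and 0.290 FPKM. The part of these markers in the differences below was not tested.

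The V-ATPase is a rotary proton pump. Its cytosolic V1 sector hydrolyses ATP and turns a rotor, and its membrane V0 sector carries protons into the lumen of lysosomes, endosomes and the Golgi. The acid it makes activates the cathepsins, proteases that are delivered as inactive precursors. Transcription factors of the MiT/TFE family, with TFEB as the best known, bind E-boxes with the core CACGTG near many lysosomal genes.

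That core was looked for in the RefSeq promoter windows of GRCh38.p14, which run from 250 bases before to 50 bases after an annotated start. Because CACGTG is its own reverse complement, a match lies on both strands. Windows were found for 28 of the 43 members, and 8 of these genes (28.6%) held at least 1 match, beside 8.77% of all 27305 genes with a window. The same 8 genes held the longer form TCACGTG or its reverse complement CACGTGA, which was present in 4.49% of all genes. Each longer match contains the shorter one. The shares of all genes take in every gene with a window, measured here or not, while 20 of the 28 members with a window were measured. They were not matched to the members for expression or for base composition of the promoter. The RNA values of the 7 measured members with a match are set beside the motif below. The stretches around the match are shown for 5 of them, and those of CTSD and ATP6V0E2 are left out. Every CACGTG is in capitals and each sequence is read 5′ to 3′ on the strand of its gene:
ATP6V0D1 (chr16:67481187-67481240, minus strand): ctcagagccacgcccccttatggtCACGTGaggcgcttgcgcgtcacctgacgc
ATP6V0B (chr1:43974879-43974950, plus strand): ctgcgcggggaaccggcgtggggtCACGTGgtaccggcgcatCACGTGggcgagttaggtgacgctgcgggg
ATP6V1G1 (chr9:114587687-114587740, plus strand): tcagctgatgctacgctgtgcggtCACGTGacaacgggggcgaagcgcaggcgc
CTSA (chr20:45891269-45891334, plus strand): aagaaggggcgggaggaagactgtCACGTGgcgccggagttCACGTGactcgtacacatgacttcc
LAMP1 (chr13:113297023-113297126, plus strand): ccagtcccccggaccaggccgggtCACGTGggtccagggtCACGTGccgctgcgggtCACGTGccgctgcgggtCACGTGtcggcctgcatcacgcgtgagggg

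LAMP1 held 6 matches, 4 of them in the stretch printed, and ATP6V0B and CTSA held 2 each. ATP6V0D1 and ATP6V1G1 held 1 each. The genes with a match lay on both sides of the comparison: of the 7 that were measured, 5 had a log2 ratio above 0 and 2 below it. Those above 0 were ATP6V0D1 (0.27), CTSA (0.24), ATP6V0B (0.22), CTSD (0.10) and LAMP1 (0.06), and those below were ATP6V1G1 (-0.46) and ATP6V0E2 (-0.00). Their median log2 ratio was 0.10, beside 0.02 for the 13 measured members whose windows held no match. Among those with a match, the transcript of ATP6V1G1 had a GC content of 42.0%. The others ran from 55.2% (LAMP1) to 64.0% (CTSD). Across all genes the log2 ratio went along with GC content, and its part in this contrast was not tested. A match describes the sequence and says nothing of binding in these cells.

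V1 subunit genes were mostly lower in the LPA library, and V0 subunit and cathepsin genes lay on both sides of 0. Of the 9 measured V1 genes 7 had a log2 ratio below 0, with a median of -0.16, where 49.8% of all genes lay below 0. ATP6V1C1, counted as below 0, was at -0.00. Of the 7 measured V0 genes 5 were above 0, with a median of 0.05, among them ATP6V0A1 at 0.03 and ATP6V0C at 0.05. Of the 9 measured cathepsins 6 were above 0, with a median of 0.11. Of all genes 50.2% lay above 0. Each of these lists is small, so a few genes near 0 decide its count. All genes within 2 percentage points of the median GC content of V1, V0 and the cathepsins had median log2 ratios of -0.01, 0.08 and 0.09. The V0 and cathepsin medians were thus both close to those of these genes. Measured V0 genes ranged in GC content from 43.6% (ATP6V0A2) to 63.6% (ATP6V0C), so a single window does not match them all. After a per-gene adjustment for GC content and length, chosen after seeing the data, the V0 median was 0.07, beside 0.01 for all genes. With that adjustment ATP6V0A1 and ATP6V0C lay below 0 and ATP6V0E1 above it. In bulk RNA, fewer cells with a transcript and less of it per cell cannot be told apart. The ratio was formed after adding 1 FPKM to both libraries, so it understates differences of genes with few FPKM. The median over all genes was 0.00, and 95% of them lay between -0.51 and 0.49. All 29 measured members lay within that range. With 1 FPKM added none reached 1.5-fold in either direction, although CTSK was 1.52-fold higher by its FPKM alone. With 1 FPKM added, 1.45% of all genes passed that limit upwards and 1.54% downwards. At 2-fold the shares of all genes were 0.351% and 0.205%.

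At a limit of 0.32 on the log2 scale 1 member was higher, CTSK, and 3 were lower, ATP6V1G1, CTSH and LAMP2. These are 3.45% and 10.3% of the measured members, beside 8.19% and 10.4% of all genes, so the share of lower members was close to the background and the share of higher members was under it. After an adjustment for GC content and length, chosen after seeing the data, CTSH was the member still past the limit downwards (-0.45), while ATP6V1G1 was at -0.32, just short of it, and LAMP2 at -0.18. With 5 FPKM added in place of 1, ATP6V1G1 alone was past it (-0.43). On the lower side LAMP2 at -0.36 was just past the limit and ATP6V1B2 at -0.30 just short of it, and on the higher side CTSL at 0.28 was short of it.

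**Figure D1:**
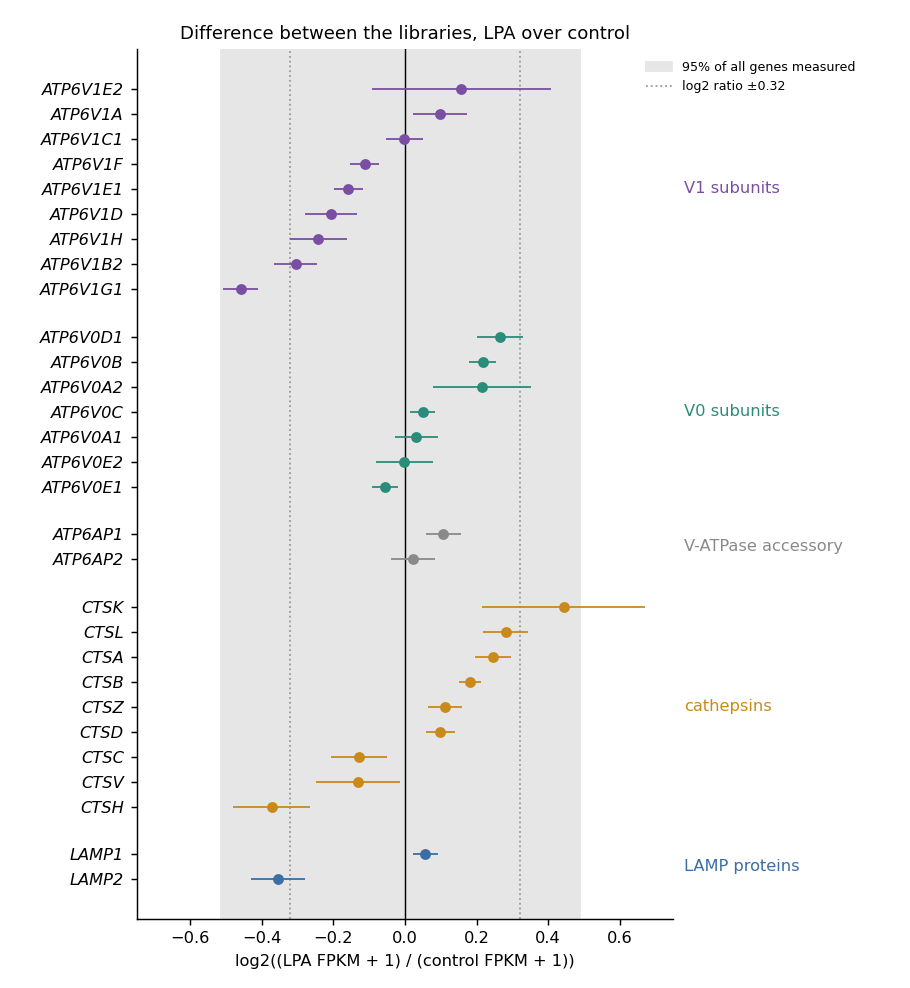
Log2 ratio of LPA over control for the 29 measured members, ordered by role. Points are single values from 1 library each, and bars are an approximate counting SE from estimated fragments. That SE is for the ratio without the added 1 FPKM and holds no replicate error. The grey band spans 95% of all genes measured (-0.51 to 0.49) and dotted lines mark the limit of 0.32. V1 points lie mostly left of 0, and all members lie inside the grey band.

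The catalytic head of V1 is a ring of alternating A and B subunits. ATP6V1A, the subunit that hydrolyses ATP, had 9.96 FPKM in the LPA library and 9.25 FPKM in the control library (log2 ratio 0.10). ATP6V1B2, its non-catalytic partner, had 20.9 FPKM in the LPA library and 26.01 FPKM in the control library (log2 ratio -0.30). The partners of the ring thus had log2 ratios of opposite sign, but the deposited bounds of each gene overlapped between libraries. Such bounds are wide even for isoforms with many fragments, so here and below their overlap does not show that levels are equal. The counting SE of ATP6V1A was 0.08 on the log2 scale, close to its log2 ratio. ATP6V1B1, the B subunit of acid-secreting cells of kidney and inner ear, had 0.110 and 0.126 FPKM, so ATP6V1B2 made up 99.5% of B subunit FPKM in each library.

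ATP6V1G1 encodes a subunit of the stalks that hold the head still, at chromosome 9, 114587714 to 114598872. Its log2 ratio of -0.46 was the lowest among measured members with 1 FPKM added, and after the GC and length adjustment that of CTSH was lower. It had 55.5 FPKM in the LPA library, with deposited bounds of 40.3 and 70.8, against 76.7 FPKM in the control library, with bounds of 55.8 and 97.7. The bounds overlapped. These levels rest on about 1411 and 2165 fragments, which gives a counting SE of 0.05 on the log2 scale, while the robust SD of the log2 ratio among all genes at mean FPKM of 5 or more was 0.24. GENCODE 29 lists 5 pseudogenes named after ATP6V1G1, and how reads shared with such copies were divided is not given in the sources used here.

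ATP6V1E1, which forms the peripheral stalks together with the G subunit, had 97.6 FPKM in the LPA library and 109 FPKM in the control library (log2 ratio -0.16). Its paralogue ATP6V1E2, known from testis, had 2.19 and 1.86 FPKM. The testis paralogue therefore held 2.19% of E subunit FPKM in the LPA library and 1.67% in the control library. The brain form ATP6V1G2 had 0.491 and 1.10 FPKM, but its locus also holds DDX39B and a read-through transcript of both genes, so the division of fragments there is uncertain. ATP6V1G3, the kidney form, was listed at 0 in both libraries.

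Both rotor shaft genes were lower. ATP6V1D had 24.8 FPKM in the LPA library and 28.7 FPKM in the control library (log2 ratio -0.21). ATP6V1F, the most abundant V1 transcript, had 196 FPKM in the LPA library and 212 FPKM in the control library (log2 ratio -0.11). ATP6V1D overlaps EIF2S1 and ATP6V1F overlaps KCP on the opposite strand, over 269 and 187 exon bases, and the TruSeq V2 kit does not mark strand. Other measured members overlap opposite-strand exons as well, among them ATP6V0E2 over 878 exon bases, CTSD over 493 and ATP6V0B over 302.

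ATP6V1H, a regulatory subunit that brakes ATP hydrolysis in free V1, had 16.4 FPKM in the LPA library and 19.6 FPKM in the control library (log2 ratio -0.24). ATP6V1C1, whose release accompanies the separation of V1 from V0, had 16.05 and 16.07 FPKM (log2 ratio -0.00). Its paralogue ATP6V1C2 had 0.716 and 0.849 FPKM. The measured V1 genes together summed to 439.8 FPKM in the LPA library and 499.7 FPKM in the control library.

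In the V0 sector the ring of proteolipid subunits carries the protons. ATP6V0C, which encodes the c subunit of the ring, had 181 FPKM in the LPA library and 175 FPKM in the control library (log2 ratio 0.05). ATP6V0B, which encodes the related c″ subunit, had 139 FPKM in the LPA library and 119.8 FPKM in the control library (log2 ratio 0.22). ATP6V0C has 4 pseudogenes named after it in GENCODE 29, and 1 of them, ATP6V0CP3, was in the table and listed at 0 in both libraries.

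ATP6V0D1, which couples the ring to the rotor shaft, lies on chromosome 16 (67438014 to 67481186) and had a log2 ratio of 0.27. It had 40.1 FPKM in the LPA library, with bounds of 28.9 and 51.3, against 33.2 FPKM in the control library, with bounds of 23.9 and 42.5, and the bounds overlapped. The osteoclast form ATP6V0D2 was listed at 0 in both libraries. ATP6V0E1, a small membrane subunit and the most abundant member of all, had 222 FPKM in the LPA library and 230.5 FPKM in the control library (log2 ratio -0.06). Its paralogue ATP6V0E2 had 14.5 FPKM in each library. GENCODE 29 lists 4 pseudogenes named after ATP6V0E1 and 1 named after the V1 gene ATP6V1E1.

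The large a subunit holds the channels through which protons enter and leave the ring, and its paralogues direct the pump to different membranes. ATP6V0A1 had 16.8 FPKM in the LPA library and 16.4 FPKM in the control library (log2 ratio 0.03). ATP6V0A2, the form of Golgi and early endosomes, had 2.26 and 1.81 FPKM (log2 ratio 0.21) and rests on about 233 and 207 fragments. TCIRG1, which encodes the a3 form and is outside the symbol rule, had 15.3 and 14.9 FPKM. ATP6V0A4, the form of acid-secreting kidney cells, had 0.121 and 0.0551 FPKM. ATP6V0A1 and TCIRG1 thus made up 48.8% and 44.3% of a subunit FPKM in the LPA library, and 49.6% and 44.8% in the control library.

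The accessory genes were close between libraries. ATP6AP1, which encodes a glycoprotein in the V0 lumen, had 51.5 FPKM in the LPA library and 47.7 FPKM in the control library. ATP6AP2, which encodes the prorenin receptor, had 32.1 and 31.6 FPKM. The measured V0 genes summed to 616 FPKM in the LPA library and 591 FPKM in the control library.

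**Figure D2:**
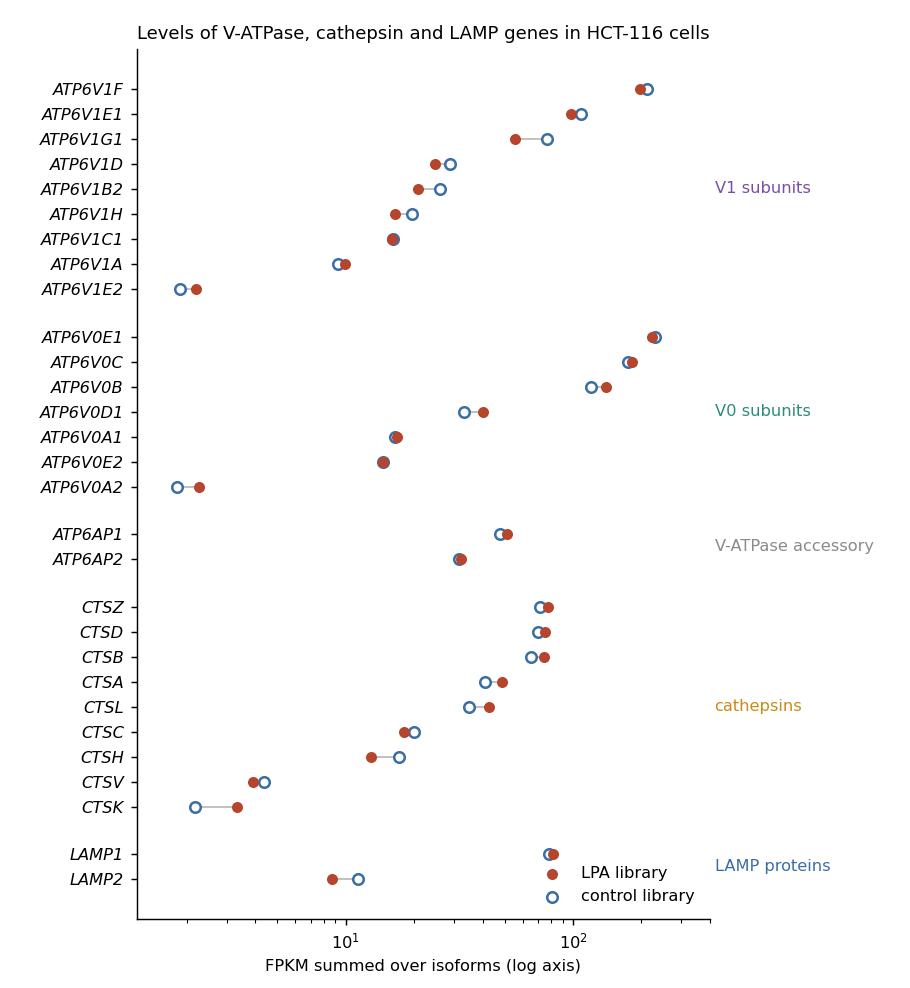
FPKM of the 29 measured members on a log axis, grouped by role and ordered by mean level, with the LPA library as filled and the control library as open points, 1 library each. V-ATPase levels run from about 2 FPKM (ATP6V0A2, ATP6V1E2) to over 200 FPKM (ATP6V0E1), and the distance between libraries is small beside the distance between genes.

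Transcripts of the same complex differed widely in level. Across the 16 measured V1 and V0 genes, the highest levels belonged to the short transcripts of ATP6V0E1 (882 nt), ATP6V1F (733 nt) and ATP6V0C (1180 nt), and the lowest belonged to ATP6V1E2 (1979 nt), ATP6V0A2 (6541 nt) and ATP6V1A (4593 nt). The level went down with the length of the leading isoform, with a Spearman rho of -0.89 and a Pearson r of -0.79 on log2 scales (16 genes). Over all 11686 genes the same values were -0.39 and -0.41. FPKM already divide by length, and the genes share both libraries, so these are descriptions across genes and not across independent samples.

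Among the cathepsins, the most abundant were CTSZ, CTSD and CTSB. CTSZ, a carboxypeptidase, had 77.6 FPKM in the LPA library and 71.7 FPKM in the control library (log2 ratio 0.11). CTSD, the main aspartic protease of lysosomes, had 75.4 and 70.3 FPKM (log2 ratio 0.10). CTSB, a cysteine protease that cuts within proteins and also removes dipeptides, had 74.5 and 65.5 FPKM (log2 ratio 0.18). The 3 genes had nearly equal levels, and each was slightly higher in the LPA library.

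CTSA, a serine carboxypeptidase that also protects lysosomal galactosidase and neuraminidase, had 48.7 FPKM in the LPA library and 40.9 FPKM in the control library (log2 ratio 0.24). Of its 5856 exon bases in GENCODE 29, 1668 lie opposite exons of PLTP, NEURL2 or AL008726.1 on the other strand, so part of its value could come from those genes. CTSL, a cysteine endopeptidase on chromosome 9 (87726059 to 87731469), had 42.6 FPKM in the LPA library and 34.9 FPKM in the control library (log2 ratio 0.28). Its close paralogue CTSV had 3.91 and 4.37 FPKM (log2 ratio -0.13). CTSL held 91.6% of the FPKM of the pair in the LPA library and 88.9% in the control library, and reads from their similar sequences, and from the 5 CTSL pseudogenes that GENCODE lists, may be shared.

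CTSK, a collagen-degrading cysteine protease best known from osteoclasts, had a log2 ratio of 0.44, the highest of the measured members with 1 FPKM added and isoforms summed. It had 3.32 FPKM in the LPA library, with bounds of 2.11 and 4.54, against 2.18 FPKM in the control library, with bounds of 1.28 and 3.08. The bounds overlapped, and about 95 and 69 fragments lie behind the values. They give a counting SE of 0.23 on the log2 scale, for the ratio without the added 1 FPKM. The osteoclast markers DCSTAMP and OCSTAMP were listed at 0 in both libraries, and ACP5 was at 0 in the LPA library and 0.122 FPKM in the control library. The remaining markers of that list were low and higher in the LPA library. OSCAR had 0.229 FPKM there and 0.148 FPKM in the control library, and CALCR had 0.0787 and 0.0194 FPKM. CTSK lies on chromosome 1 (150796208 to 150808441).

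CTSH, an aminopeptidase, and CTSC, a dipeptidyl peptidase that activates serine proteases of immune granules, were lower. CTSH on chromosome 15 (78921750 to 78945078) had 13.0 FPKM in the LPA library, with bounds of 8.997 and 16.9, against 17.1 FPKM in the control library, with bounds of 12.03 and 22.1 (log2 ratio -0.37). CTSC had 18.1 FPKM in the LPA library and 19.9 FPKM in the control library (log2 ratio -0.13). By catalytic class, the aspartic and serine cathepsins that were measured, CTSD and CTSA, were higher, while the cysteine cathepsins were split, with CTSB, CTSK, CTSL and CTSZ higher and CTSC, CTSH and CTSV lower.

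Of the 6 cathepsins that were not measured, CTSS, CTSW, CTSG and CTSE are known mainly from other cells. CTSS, which processes antigen in antigen-presenting cells, had 0.179 FPKM in the LPA library and 0.131 FPKM in the control library. CTSW of cytotoxic lymphocytes had 0.0483 and 0.0843 FPKM, and CTSG of neutrophils was listed at 0 in both. CTSO had 0.146 and 0.346 FPKM, CTSF 0.0326 FPKM and a listed 0, and CTSE, an aspartic protease of the stomach, a listed 0 and 0.0278 FPKM. A listed 0 need not mean absence.

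LAMP1 and LAMP2 are the most abundant glycoproteins of the lysosomal membrane. LAMP1 had 81.5 FPKM in the LPA library and 78.3 FPKM in the control library (log2 ratio 0.06). LAMP2 on chromosome X (120426148 to 120469349) had 8.66 FPKM in the LPA library and 11.4 FPKM in the control library (log2 ratio -0.36). LAMP3, known from mature dendritic cells, had 0.635 and 0.971 FPKM and was not measured by the limit used. LAMP1 thus exceeded LAMP2 in both libraries.

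Members had 103 isoforms in the table, of which 41 had a mean of at least 1 FPKM. A single one, of ATP6V0A1, had deposited bounds that did not overlap between the libraries, where 4.61% of all 16999 isoforms at that level did (2.48% higher and 2.12% lower in the LPA library). The isoform matched to NM_001130020 had 0.00136 FPKM in the LPA library, with bounds of 0 and 0.0449, against 5.14 FPKM in the control library, with bounds of 2.58 and 7.70. The isoform matched to NM_005177 had 16.8 FPKM in the LPA library, with bounds of 12.1 and 21.5, against 11.3 FPKM in the control library, with bounds of 7.52 and 15.1. The first isoform thus held 0.00808% of ATP6V0A1 FPKM in the LPA library and 31.3% in the control library, while the gene's total was nearly the same.

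These isoforms are 4143 and 4122 nt long in the table, a difference of 21 nt. In the GENCODE 29 transcripts cross-referenced to them, their coding sequences differ in the start of 1 exon on chromosome 17, which lies wholly within the coding sequence. The longer form of that exon is shown because these 21 bases, in capitals, are what sets the isoforms apart:
ATP6V0A1 exon (chr17:42477639-42477742, plus strand, GRCh38): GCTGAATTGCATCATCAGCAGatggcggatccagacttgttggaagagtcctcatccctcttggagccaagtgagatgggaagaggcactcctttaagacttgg
The shorter form starts at the first lower-case base, and 21 is a multiple of 3, so the reading frame is kept. Only fragments that reach these bases or the junction before them can tell the isoforms apart, and the number of such fragments is not known here. Another form, NM_001130021, adds an exon of 18 nt and was listed at 0 in both libraries.

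Isoforms of CTSL, LAMP2 and ATP6V1H are described as well, chosen after their values were seen, and the bounds of each overlapped between libraries. In CTSL the leading isoform was NM_145918 in the LPA library, with 39.8% of the gene's FPKM against 36.2% in the control library. NM_001912 led in the control library and held 24.8% in the LPA library and 42.2% in the control library. NM_001257972 had 4.79 FPKM in the LPA library and 1.10 FPKM in the control library.

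In LAMP2 most of the difference lay in NM_013995, the LAMP2B form, with 6.97 FPKM in the LPA library and 9.58 FPKM in the control library. NM_002294, the LAMP2A form that acts in chaperone-mediated autophagy, had 1.69 and 1.78 FPKM. In ATP6V1H, NM_015941 had 12.7 and 15.1 FPKM and NM_213620 had 2.76 and 4.56 FPKM, so both measured forms were lower in the LPA library. Isoforms whose splice pattern differs from RefSeq were 3 in number and low: that of ATP6V0B had 0.684 and 0.402 FPKM, and those of ATP6V0A1 and ATP6V1H were listed at 0 in both libraries.

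**Figure D3:**
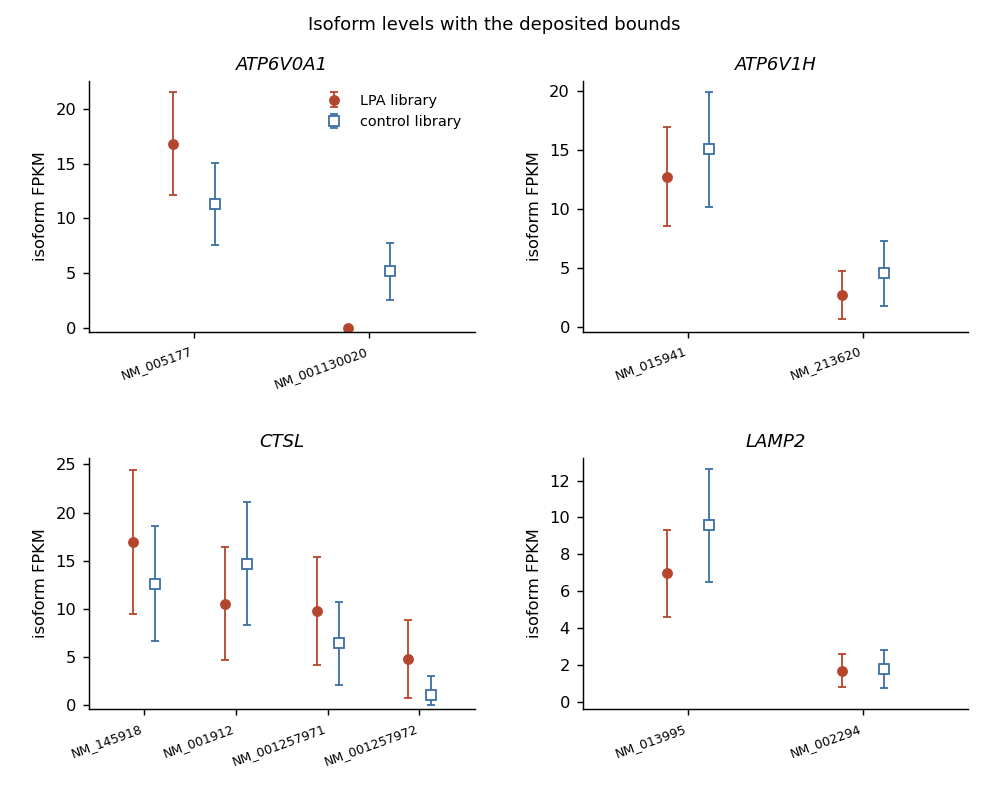
FPKM of the isoforms at a mean of at least 1 FPKM in ATP6V0A1, ATP6V1H, CTSL and LAMP2, with the LPA library as filled circles and the control library as open squares; bars are the deposited lower and upper bounds, whose level is not stated. For ATP6V0A1 NM_001130020 the bars are apart (0.00136 against 5.14 FPKM), and in the other panels they overlap.

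Base composition went along with the log2 ratio across the transcriptome. Over 11208 genes with a GC value, the Spearman rho between the log2 ratio and the GC content of the leading isoform was 0.30 (Pearson r 0.21), and over 28 measured members it was 0.40 (Pearson r 0.37). The measured V1 genes had a median GC content of 45.4%, the V0 genes 57.9% and the cathepsins 52.8%. All genes within 2 percentage points of these values had median log2 ratios of -0.01, 0.08 and 0.09. After the adjustment for GC content and length V1 had a median of -0.18, V0 of 0.07 and the cathepsins of 0.06. Among measured members, LAMP2 had the lowest GC content (37.7%) and ATP6V1G1 had 42.0%, and their adjusted log2 ratios were -0.18 and -0.32.

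**Figure D4:**
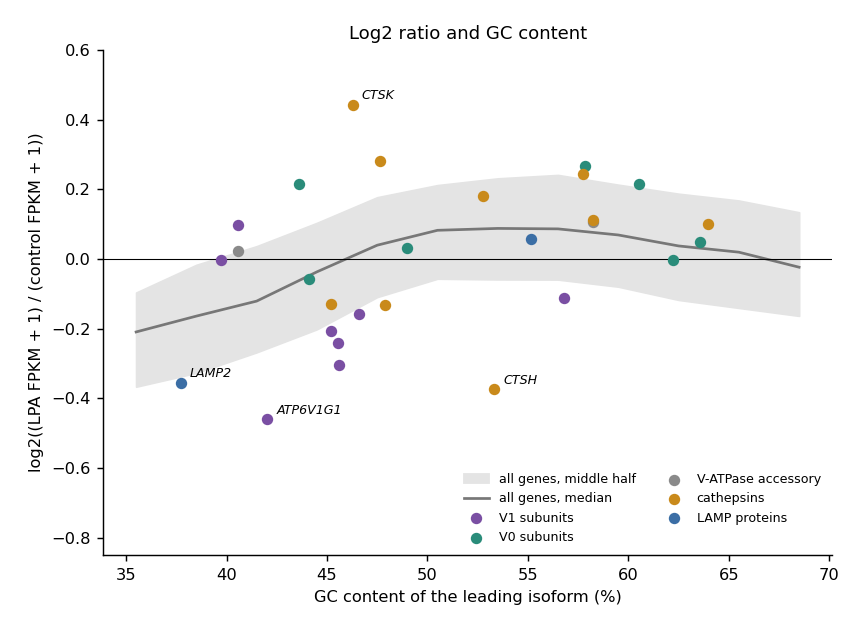
Log2 ratio of LPA over control against the GC content of the leading isoform for 28 measured members, coloured by role, over the median (line) and interquartile range (band) of all genes in GC bins. Members past a log2 ratio of 0.32 in size are named. The all-gene median runs below 0 at low GC content, where LAMP2 and ATP6V1G1 lie.

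Other genes of the pathway came from 7 lists, with 102 of 114 genes measured. Of these, 58 were above 0 and 44 below, with a median of 0.03, and past the limit of 0.32 there were 3 higher and 9 lower genes. These are 2.94% and 8.82% of the genes measured in the lists, beside 8.19% and 10.4% of all genes, so both shares were under the background. The median of the members themselves was also 0.03. Among 12 measured partners and assembly factors of the V-ATPase, OXR1, whose TLDc domain binds the pump, had 6.52 FPKM in the LPA library and 9.87 FPKM in the control library (log2 ratio -0.53), and ROGDI, related to an assembly factor of yeast, had 9.30 and 11.4 FPKM. RNASEK, a membrane protein that associates with the pump, had 210.7 and 172 FPKM (log2 ratio 0.29), and the assembly factor TMEM199 had 5.94 and 5.44 FPKM.

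Other lysosomal hydrolases and activators, with 37 of 40 measured, had 22 genes above 0 and a median of 0.06. The lowest were GGH, a hydrolase of folate polyglutamates (31.4 FPKM in the LPA library and 43.8 FPKM in the control library), and the acid lipase LIPA (18.2 and 25.1 FPKM). The highest were GUSB, a glucuronidase (17.9 and 13.1 FPKM), and DNASE2, an acid nuclease (17.4 and 13.8 FPKM). Other membrane proteins and transporters of the lysosome, all 25 measured, were split with 13 above 0 and a median of 0.01. LAPTM4A had 96.2 FPKM in the LPA library and 125 FPKM in the control library, and the sialic acid transporter SLC17A5 had 12.9 and 15.9 FPKM. The ion channels TMEM175 (6.92 and 5.55 FPKM) and MCOLN1 (11.7 and 9.55 FPKM) had the highest log2 ratios among those at a mean of 5 FPKM or more, and the cystine transporter CTNS, named after its values were seen, had 3.63 and 2.75 FPKM (log2 ratio 0.30).

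In the list of mannose 6-phosphate tagging and sorting 7 of 12 genes were above 0 (median 0.04), with NAGPA, which uncovers the tag, at 10.0 FPKM in the LPA library and 7.74 FPKM in the control library, and GGA2 at 12.2 and 11.3 FPKM. The adaptor gene AP3B1 had 16.2 and 20.98 FPKM and the retromer gene VPS35 had 26.5 and 33.3 FPKM. Ragulator and Rag GTPase genes, which tie mTORC1 to the lysosome, had 4 of 10 above 0 and a median of -0.06, from LAMTOR3 (4.54 and 6.63 FPKM) and RRAGC (5.54 and 7.17 FPKM) to LAMTOR4 (195 and 174 FPKM) and LAMTOR2 (68.8 and 55.6 FPKM). Of the MiT/TFE factors TFEB had 3.80 FPKM in the LPA library and 3.11 FPKM in the control library, TFE3 had 8.55 and 8.84 FPKM, and MITF and TFEC were not measured.

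Cystatins, the inhibitors of cysteine cathepsins, included CST6, the single gene of these lists past 1.5-fold once 1 FPKM was added, with 109 FPKM in the LPA library and 57.7 FPKM in the control library (log2 ratio 0.90). Its product, cystatin E/M, inhibits the proteases encoded by CTSL, CTSV and LGMN. The secreted inhibitor gene CST3 had 194 and 157 FPKM (log2 ratio 0.30), CSTA had 16.6 and 14.2 FPKM, and CSTB, which encodes a cytosolic inhibitor, had 240.3 and 245 FPKM. Of the 4 measured cystatins 3 were above 0. The remaining 5 cystatins were not measured.

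**Figure D5:**
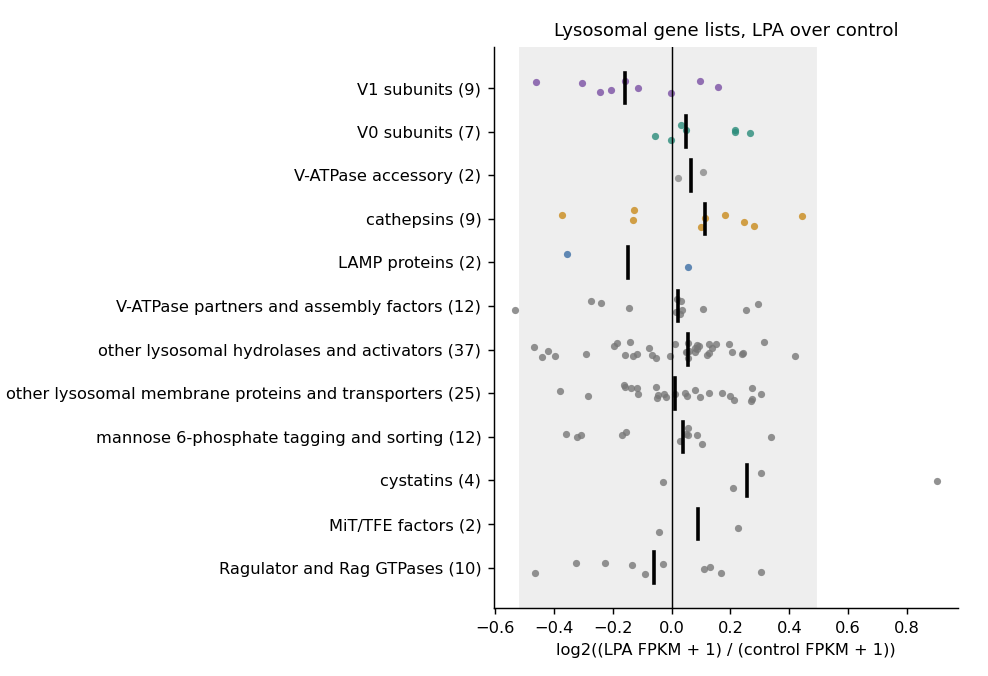
Log2 ratios of LPA over control for the measured genes of each list, with the number measured in brackets; points are genes (with random vertical offset), black bars are medians and the grey band spans 95% of all genes. V1 subunits have the lowest median of the lists with at least 3 genes, and CST6 among the cystatins is the point farthest right.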

How the data were processed

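Poly-A RNA of HCT-116 cells was sequenced as 1 LPA and 1 control library, grouped by title. Tools listed in the submitters' processing notes are bcl2fastq 2.16.0.10, TopHat2 2.0.12, Cufflinks and Cuffdiff 2.2.0, with the build hg38 and without their settings. The authors deposited FPKM for 63236 isoforms with lower and upper FPKM bounds, per the file headers. With 1 library per condition the bounds rest on no replicates, and how they were computed is not given. They are wide even where fragments are many. CTSB NM_001908 had 71.9 FPKM in the LPA library, with bounds of 52.1 and 91.8, on about 4290 fragments. Overlapping bounds therefore do not show that levels are equal. Isoforms with the status HIDATA (16) or FAIL (11) in the LPA library were treated as missing; no member has such an isoform. FPKM were summed per symbol, 1 FPKM was added for log2 ratios, and genes at a mean of 1 FPKM or more were kept (Python 3.11.15, pandas 2.3.3, numpy 2.4.6; tested on simulated data). The worth of 1 fragment came from the lowest FPKM of single-isoform genes longer than 2000 nt. It gives 31.5 (LPA) and 35.0 (control) fragments at 1 FPKM on 2 kb. Counting SEs are approximate, cover counting error only and are for the log2 ratio without the added 1 FPKM. GC content was taken from GENCODE 29 transcripts matched by RefSeq identifier (95.9% of genes measured, 28 of 29 members). Promoters are RefSeq sequences of GRCh38.p14. The members and lists were chosen with earlier results of these data known. Every measured member is named; in other lists the 2 highest and 2 lowest genes at mean FPKM of 5 or more are, with TCIRG1, the MiT/TFE factors and cystatins. The alternatives were another pseudocount, filter, isoform rule, centring and status rule, and, chosen after seeing the data, an adjustment for GC content and length.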

Additional observations from a re-analysis of the deposited data

How the results depend on the processing

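No paired analysis was possible because each group has 1 library, and for the same reason no replicate could be left out. A median counted as moved when it changed by at least 0.1 on the log2 scale. The medians of V1, the cathepsins and all members moved by less than that under every alternative run. When each gene was represented by its leading isoform, the V0 median was 0.21, and 3 members were past the limit of 0.32 upwards, CTSK, ATP6V0A1 (0.54) and CTSL (0.40); for ATP6V0A1 this isoform leaves out NM_001130020. With a pseudocount of 0.1 CTSK passed 1.5-fold (0.59), so that 1 member was at least 1.5-fold apart. With a pseudocount of 5 the counts past the limit were 0 higher and 1 lower, and under a filter at a mean of 5 FPKM 0 were higher, since CTSK lies under that limit. With an adjustment for GC content and length, chosen after seeing the data, 1 member was past the limit downwards, CTSH, and ATP6V0A1, ATP6V0C, ATP6V0E1, ATP6V1C1 and LAMP1 changed sign; no other alternative turned a sign except that of ATP6V0E2 with the leading isoform. No median of all genes moved by 0.1 in these settings. Depth limits CTSK most among the members past the limit, with about 95 and 69 fragments.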
